A study of Rattus norvegicus with 24 samples.

Results

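Sgk1 and Hif3a are genes that respond to stress hormones, and their symbols were looked up among the chromosome 1 genes through which the count table's Ensembl IDs could be named. Of these 2 genes, 1 was matched to a row of the 32883 in the table: Sgk1, as ENSRNOG00000011815. Hif3a, which encodes an alpha subunit of the hypoxia-inducible factors, was not matched to an Ensembl ID, and its expression is not analysed here, so no correlation between both genes is given. The data are RNA-Seq read counts from the whole hippocampus of 24 F0 rats of the 37th generation of selective breeding for locomotor response to novelty. There were 6 male and 6 female bred High Responders (bHRs) and 6 male and 6 female bred Low Responders (bLRs), without drug treatment or transgene. The labels give the males an age of 151 to 165 days and the females 187 to 192 days, while the protocol text states younger adults. By the study's methods, the females were dissected about a month apart from the males, and each dissection day held rats of both lines. Sex, age and day of dissection therefore cannot be told apart, whereas lineage was compared within a day. Each temperament is represented by 1 breeding line, and the rats were decapitated without anesthesia after behavioral testing. The bHR female of family H05 carries a label for low RNA integrity (RIN 6.3) and was left out, leaving 23 rats.

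SGK1 is the serum- and glucocorticoid-regulated kinase, a serine/threonine kinase whose gene is transcribed within minutes to hours of a rise in corticosterone through the glucocorticoid and mineralocorticoid receptors. Its protein is switched on by phosphorylation downstream of phosphoinositide 3-kinase, and among its substrates are the ubiquitin ligase Nedd4l, which controls the number of ion channels and transporters at the membrane, and the FoxO transcription factors. In the brain, Sgk1 is expressed by neurons and glia, including oligodendrocytes of stressed animals, and it has been studied in learning, neuronal excitability and stress.

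Sgk1 lies on the minus strand of chromosome 1 at 24185435 to 24302298 in the Rnor6 build. The RefSeq table for the later GRCr8 build lists 3 transcription start windows for it, each reaching from 250 bases before a start to 50 after. The letters TATAAA, the core of a TATA box, were found on either strand in 2 of the 3 windows, against 14.2% of the 33469 rat windows of that length. The stretches around them are shown because the counts cannot separate transcripts from these starts, and the capitals mark TATAAA. In the stretch at chr1:24807269-24807298 (GRCr8, minus strand), TATAAA begins 55 bases before the upstream start. In that at chr1:24804847-24804876 (GRCr8, minus strand), it begins 33 bases before the downstream start.
Sgk1, ahead of the upstream start: attccctttagaTATAAAgcgggactcgga
Sgk1, ahead of the downstream start: aggctcagggctTATAAAgtcggtcgcaga
The palindromic glucocorticoid response element, searched as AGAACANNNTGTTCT on both strands, was in none of the 3 Sgk1 windows and in 0.0149% of all windows. So rare a match could hardly be met in 3 windows, and bases farther than 250 before a start were not searched. Its half-site AGAACA, a part of those letters, was in none of the 3 either, against 20.7% of all windows, and the same was true of both Hif3a windows. ACGTG, the core of the hypoxia response element, was likewise absent from the 3 Sgk1 and the 2 Hif3a windows, against 19.3% of all.

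Sgk1 was detected in every rat, with 384 to 2082 counts in libraries of 16824899 to 28443049 counts on genes. In these libraries, 3 counts would stand for 0.105 to 0.178 CPM (counts per 1000000 counts), far under any Sgk1 level here. Levels of Sgk1 are given as CPM on library sizes scaled by TMM (trimmed mean of M-values), the scale of the tests. The TMM-scaled size was 0.689 to 1.34 times the total count, so the choice of scale moved the levels of single rats. Both scales are given for group means and where a call or a sign changed. Markers of neurons (Rbfox3, Slc17a7 and Stmn2) were present in all rats, with a summed level of 914 to 2445 CPM on total counts. In a bulk sample, fewer cells of a type and less RNA per cell cannot be told apart.

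The mean level of Sgk1 was highest in the bLR males. Their levels were 41.7, 42.5, 63.8, 88.9, 89.7 and 115 CPM. The bHR males had 21.3, 21.4, 24.6, 27.7, 47.5 and 50.1 CPM. Of the 6 bLR males, 4 lay above every bHR male, and 4 of the 6 bHR males lay below every bLR male, but the groups overlapped. The bHR females had 28.8, 28.9, 35.8, 44.3 and 44.6 CPM, and the female left out for low RIN had 63.7 CPM. The bLR females had 21.5, 29.4, 31.4, 34.1, 42.7 and 49.9 CPM. The range of the bLR females held that of the 5 bHR females used, and all 6 bLR females lay below the median bLR male.

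**Figure D1:**
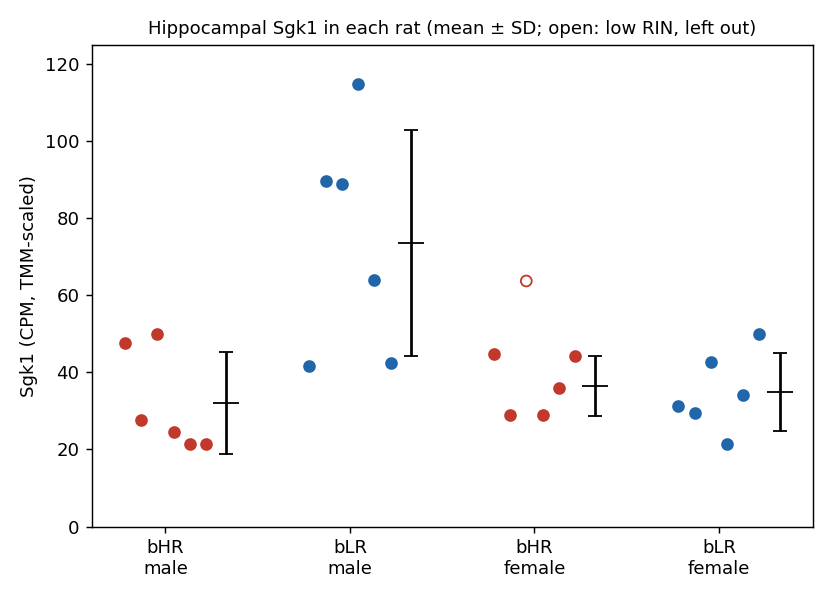
Sgk1 in each rat (y axis, TMM-scaled CPM) by line and sex (x axis), with bHRs in red and bLRs in blue. Bars give the mean and SD over the rats used, and the open circle is the bHR female left out for low RIN. The bLR males reach 115 CPM and average 73.6, while the other 3 groups average 32.1 to 36.5.

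By group mean, the order was bLR males with 73.6 ± 29.3 CPM (SD, n = 6), bHR females with 36.5 ± 7.82 (SD, n = 5), bLR females with 34.8 ± 10.1 (SD, n = 6) and bHR males with 32.1 ± 13.2 (SD, n = 6). On total counts the order was the same, at 68.8 ± 26.5, 39.1 ± 15.5, 38.0 ± 12.1 and 32.5 ± 17.2 CPM. The 3 lower groups stood within 1 SD of each other. The 6 pairs of groups were compared on log2 CPM with two-sided exact permutation tests, adjusted by the Benjamini-Hochberg method over the 6. The bLR males were 2.28-fold above the bHR males (exact p = 0.0130, adjusted p = 0.0390). The bLR females were 0.491 times the level of the bLR males (exact p = 0.0130, adjusted p = 0.0390). The bLR males were 1.91-fold above the bHR females (exact p = 0.0260, adjusted p = 0.0519), a neighbor in the order. Among the 3 lower groups, the smallest exact p was 0.385 and the smallest adjusted p 0.578. These pairs were chosen after the levels were known, and the smallest p that such groups allow is 0.00216 for 6 rats against 6 and 0.00433 for 6 against 5.

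The lineage comparison asks whether the level of a gene differs between bLRs and bHRs across both sexes. Over the 23 rats, Sgk1 had a Log2FC of 0.53 (SE 0.24, bLR vs. bHR) in a model with sex and the RNA metrics %rRNA and %intergenic. This did not pass the threshold after adjustment over all genes (edgeR quasi-likelihood test, FDR = 0.462). In this model, 1.34% of the 13838 genes tested passed FDR < 0.10 and 9.96% had an unadjusted p under 0.05, and by p Sgk1 stood in place 1154. Split by sex, with %rRNA as covariate, the Log2FC of Sgk1 was 1.24 (SE 0.32) in males (edgeR, FDR = 0.386). In females it was -0.10 (SE 0.22, edgeR, FDR = 0.856). Of all genes tested, 0.131% were called in males and 0.0569% in females, and by p Sgk1 stood in place 59 of 13778 in males and 11094 of 14048 in females. Without the bLR male of family L07 the male Log2FC was 1.00, and it then passed the threshold (FDR = 0.0509), in a fit that called 9 genes (0.0654% of those tested) and had Sgk1 in place 8 by p. Without the bHR male of family H02 it was 1.36 with an FDR of 0.0894, but that fit called 502 genes (3.67% of those tested), and the place of Sgk1 by p was 113, behind its place of 59 with all males. Without each of the other 10 males, the FDR was 0.291 to 0.914.

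The bLR male of family L07 held the highest TMM-scaled level of Sgk1, 115 CPM. Its library had the highest %rRNA (3.98%) of the 23 rats, the lowest labelled RNA concentration (17.3) and the lowest ratio of TMM-scaled to total library size (0.689). On total counts this rat had 79.1 CPM, below the bLR males of families L03 (104 CPM) and L06 (90.6 CPM). The bHR male of family H02 had the highest %intergenic of the 23 rats, at 13.5%. The part of these properties in the Sgk1 levels of these rats was not tested.

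**Figure D2:**
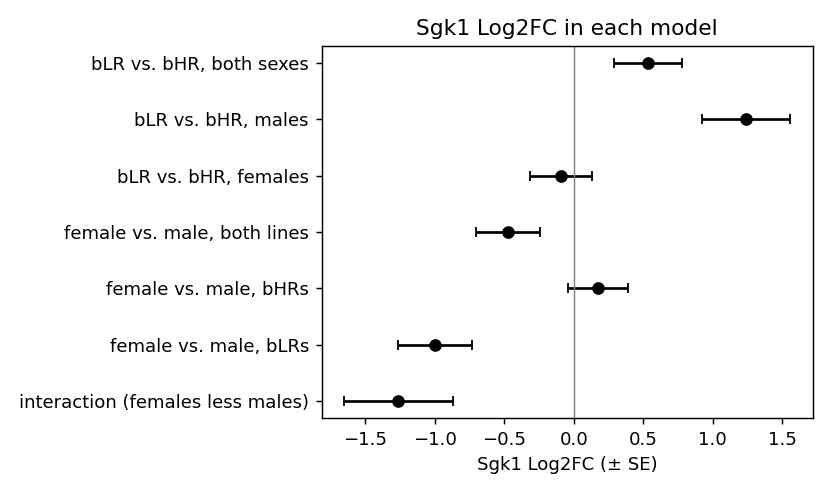
Log2FC of Sgk1 with its SE (x axis) in each model (y axis), from edgeR fits over all genes. The bLR vs. bHR Log2FC is 1.24 in males and -0.10 in females, and the female vs. male Log2FC is -1.00 in bLRs and 0.17 in bHRs. None passed FDR < 0.10.

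Whether the lineage difference itself differed between the sexes was tested with an interaction term. The bLR vs. bHR Log2FC of Sgk1 in females less that in males was -1.26 (SE 0.39, edgeR, FDR = 1.00). Sgk1 had the 12th smallest p of the 13838 genes. No gene passed FDR < 0.10 for this term (0% of those tested), and 325 genes (2.35%) had an unadjusted p under 0.05. The interaction thus failed the correction over all genes. With %intergenic added to the model it was -1.48 (edgeR, FDR = 0.548).

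The sex comparison is also one of dissection day. Across both lines, the female vs. male Log2FC of Sgk1 was -0.47 (SE 0.23) and did not pass the threshold (edgeR, FDR = 0.447). The threshold was passed by 0.354% of all genes. By line, the female vs. male Log2FC was -1.00 in bLRs (SE 0.27, edgeR, FDR = 0.840) and 0.17 in bHRs (SE 0.22, edgeR, FDR = 1.00), where 0.0574% and 0.0652% of genes were called. The labels give 1 male and 1 female to each of 12 families, although the study describes 24 separate families. Within these labelled families, the bLR female had less Sgk1 than the bLR male in 5 of 6 families. The largest gap was in family L07, with 115 CPM in the male and 21.5 in the female, and the exception was L10, with 42.5 CPM in the male and 49.9 in the female. Among the 5 bHR families with both rats used, the female had less Sgk1 in 1, H02, with 47.5 CPM in the male and 44.6 in the female. In H12 the female had 44.3 CPM and the male 21.3, the largest gap among bHRs. The female minus male difference on the log2 scale averaged -1.03 ± 0.92 (SD, n = 6) in bLRs and 0.40 ± 0.48 (SD, n = 5) in bHRs. These differences between rats of a family differed between the lines by -1.43 (two-sided exact permutation test chosen after the values were seen, p = 0.0173). With family as a block in the model over both lines, the female vs. male Log2FC was -0.17 (edgeR, FDR = 0.903).

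**Figure D3:**
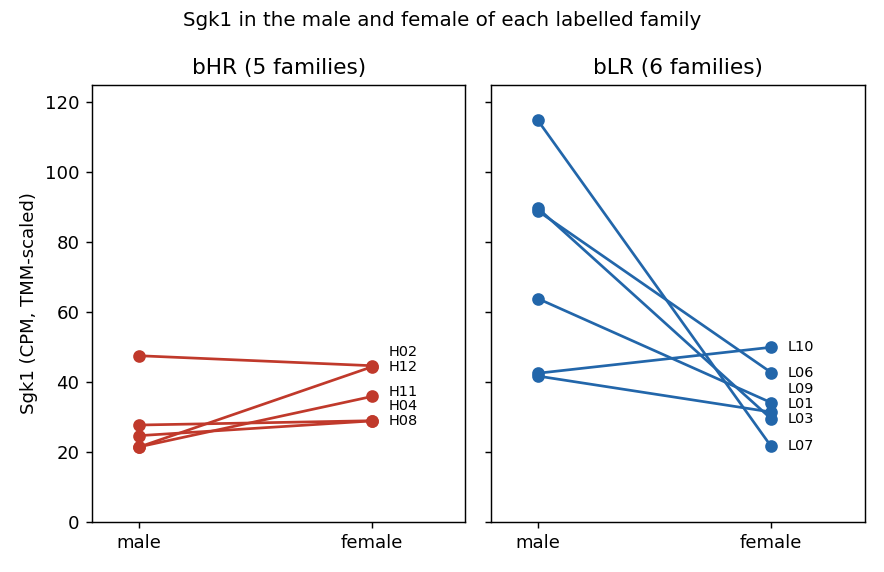
Sgk1 (y axis, TMM-scaled CPM) in the male and the female of each labelled family (x axis), joined by a line, with bHRs on the left and bLRs on the right. Family codes stand beside the female, moved apart where they would overlap. The lines fall in 5 of 6 bLR families and in 1 of 5 bHR families.

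Markers of other cell types were read beside Sgk1, with their summed levels as CPM on total counts. All 4 erythroid genes (Hbb, Hba-a1, Hba-a2 and Alas2, of hemoglobin and heme synthesis) were lower in females (FDR < 0.10, against 0.267% of all genes in that direction), and their median Log2FC was -2.08. The alpha globin genes are near-identical copies, so their separate counts are uncertain. The summed level of all 4 erythroid genes on total counts was 710 to 2679 CPM in bLR males and 157 to 490 CPM in bLR females. In bHRs, on the same scale, it was 804 to 4653 CPM in males and 66.7 to 816 CPM in females. The mean erythroid level was higher in males of both lines, and the ranges of male and female bHRs overlapped. Mean Sgk1 was higher in males than in females in the bLR line only. Of the 5 choroid plexus and meningeal markers matched, all 5 had a lineage Log2FC above 0, with a median of 0.26, and 0 passed the test. Over all genes, 6780 of 13838 had a lineage Log2FC above 0. An unadjusted lineage p under 0.05 was found in 2 of these 5 markers and in 9.96% of all genes. Their summed level on total counts was 68.1 to 207 CPM in bLR males and 56.2 to 250 CPM in bHR males. The 6 oligodendrocyte markers had a summed level on total counts of 132 to 488 CPM in bLR males and 177 to 345 CPM in bHR males, and 0 of 6 passed the lineage or the sex test. Of these 6, 2 had an unadjusted lineage p under 0.05, Opalin at a Log2FC of 0.44 and Nkx6-2 at -0.26. Nor did any of the 4 astrocyte, 2 microglial, 3 vascular or 3 neuronal markers pass either test. With 1.34% of all genes called for lineage and 0.354% for sex, counts of 0 say nothing particular to lists this short. Besides the erythroid genes, Gfap (-0.36), Slc7a10 (0.16) and Slc22a6 (0.94) had an unadjusted sex p under 0.05, as 1553 of 13838 genes did. In the interaction, 3 of the 27 markers had an unadjusted p under 0.05 (Acta2, Slc22a8 and Hba-a1), against 2.35% of all genes, each with a positive Log2FC, opposite in sign to that of Sgk1. None of the markers was at 0 counts in any rat, and the part of these cell types in the Sgk1 levels was not tested.

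Other genes of the same pathways were read beside Sgk1. Over all genes, 1.34% were called for lineage and 0.354% for sex, so a count of 0 among lists this short says nothing particular to them. The lists could be matched only in part, since 1985 of the 32883 rows could be given a symbol. Of 34 genes induced by glucocorticoids, 4 were matched and 0 passed the lineage test in either direction (1.34% of all genes did), with a median Log2FC of 0.05 beside -0.00 over all genes. Klf9, a transcription factor induced through glucocorticoid receptors in neurons, had 24.8 ± 11.9 CPM (SD, n = 6) in bLR males and 27.9 ± 14.2 (SD, n = 6) in bHR males on total counts. Its Log2FC was -0.06 for lineage (FDR = 0.936) and -0.04 for sex (FDR = 0.923). Anxa1, an anti-inflammatory phospholipid-binding protein that glucocorticoids induce, had a lineage Log2FC of 0.26 (FDR = 0.569) and a sex Log2FC of 0.28 (FDR = 0.434). For the Sgk1 interaction of -1.26, the values of these 4 genes were 0.45 for Klf9, 0.29 for Klf13, 0.18 for Anxa1 and -0.16 for Sult1a1, none with an unadjusted p under 0.05.

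Of 19 receptors, chaperones and genes of hormone handling, 7 were matched and 0 passed either test. Crh, the corticotropin-releasing hormone, had a lineage Log2FC of 0.35 (SE 0.14, edgeR, FDR = 0.346). Crhbp, which binds and neutralizes it, had -0.28 (SE 0.10, edgeR, FDR = 0.272), and these 2 of the 7 had an unadjusted lineage p under 0.05, as 9.96% of all genes did. Fkbp4 and Ppp5c, co-chaperones of steroid receptor complexes, had -0.18 and -0.05 (FDR = 0.673 and 0.884). Of 20 genes around the kinase itself, 3 were matched: Rictor, a defining subunit of the complex that phosphorylates SGK1, Akt2, a related kinase, and Gsk3a, a shared substrate. Their lineage Log2FCs were -0.28, -0.27 and -0.13, and 0 of the 3 passed the test (lowest FDR 0.536).

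For the pathway of Hif3a, 4 of 10 HIF subunits and regulators were matched, and 0 passed either test. An unadjusted p under 0.05 was found in 1 of the 4 for lineage (Cited2) and in 1 for sex (Arnt2), as in 9.96% of all genes for lineage and 1553 of 13838 for sex. Arnt2, a partner of HIF alpha subunits in neurons, had a lineage Log2FC of -0.01 (FDR = 0.991) and a sex Log2FC of 0.31 (FDR = 0.437). Egln2 and Hif1an, oxygen-sensing hydroxylases, had lineage Log2FCs of 0.01 and 0.09 (FDR = 0.990 and 0.848). Cited2, which competes with HIF1 alpha for its coactivator, had 0.19 (FDR = 0.490). Of 16 HIF target genes 7 were matched, 0 passed either test, and 3 had an unadjusted lineage p under 0.05, as 9.96% of all genes did: Adm (adrenomedullin) at -0.52, Aldoa (aldolase A) at 0.28 and Pgam1 (phosphoglycerate mutase) at -0.24. Of 13 immediate-early genes, which neuronal activity induces within minutes, 5 were matched and 4 had enough reads to test. None of Fosb, Dusp5, Homer1 and Plk2 passed either test, with lineage Log2FCs from -0.12 to 0.21.

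**Figure D4:**
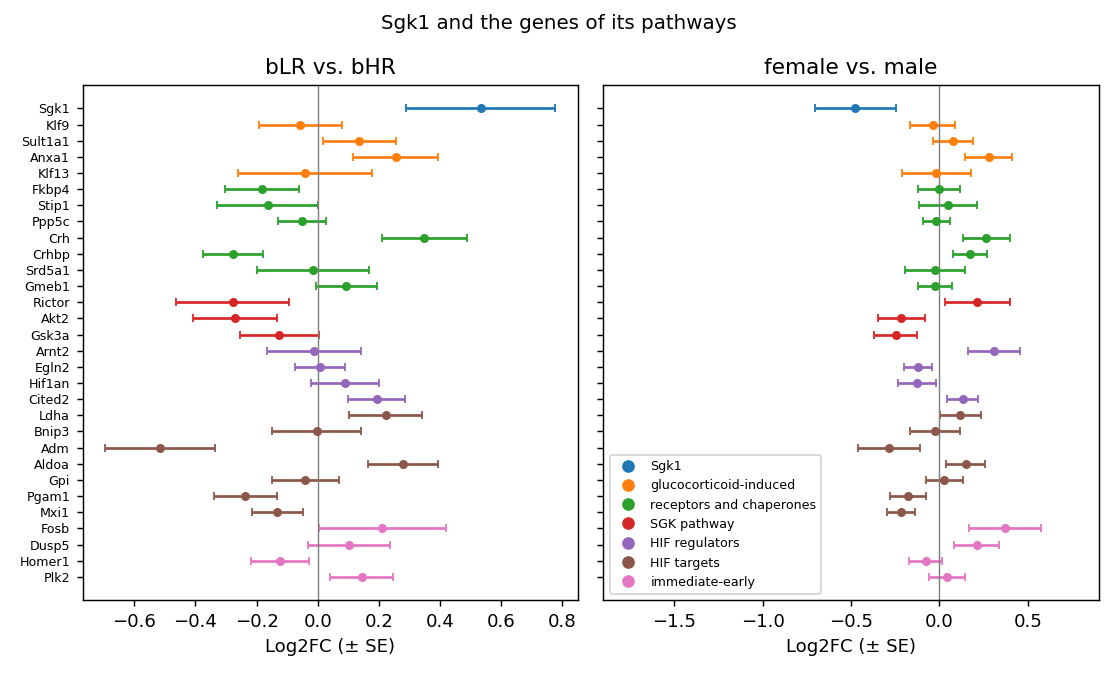
Log2FC with its SE (x axes) for bLR vs. bHR (left) and female vs. male (right) in Sgk1 and the 29 matched and tested genes of its pathway lists (y axis), colored by list. Sgk1 has the highest lineage Log2FC (0.53) and the lowest sex Log2FC (-0.47) shown, and no gene shown passed FDR < 0.10.

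Among the genes that could be placed on Rnor6, 5 start within 1 Mb of Sgk1, and 1 of these passed the lineage test (1.34% of all genes tested did). LOC679711, at 24981823 to 24982606 on chromosome 1, had 1.42 CPM in bLR males and 0.692 in bHR males on total counts, with a Log2FC of 1.14 (SE 0.26, edgeR, FDR = 0.0238). It had 1 to 51 counts a rat. Slc2a12, a glucose transporter gene at 24003625 to 24056373, had a Log2FC of 0.38 (FDR = 0.464). Tbpl1, a relative of the TATA-binding protein, had -0.14 (FDR = 0.676), Clvs2, a clathrin vesicle protein of neurons, had -0.05 (FDR = 0.905), and AABR07000733.1 had -0.67 (FDR = 0.480). The interaction of lineage and sex had an unadjusted p of 0.467 or more in these 5 neighbors, against 0.00369 in Sgk1.

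The relation of Sgk1 with behavior was measured within each line, with sex means subtracted, because the lines were bred apart in locomotor score. Behaviors were the total LocoScore and the percent time in open arms, distance, time immobile and boli on the elevated plus maze (EPM), an anxiety test with open and walled arms. The 11 bHRs all had 0 boli, which left 9 relations, and none passed correction. The lowest permutation p was that of Sgk1 with LocoScore in bHRs, with r = 0.49 (permutation p = 0.145, adjusted over the 9 0.834) and rho = 0.40 (permutation p = 0.252, adjusted 0.779), where LocoScores ran from 1533 to 2949. Without the 2 bHRs farthest from the median LocoScore, r was 0.22. In bLRs, whose LocoScores ran from 23 to 101, r was -0.08 and rho 0.07 (permutation p = 0.834 and 0.838). The labelled total was used, and in some rats it differs from the labelled lateral plus rearing counts. Among these is the bLR male of L09, at 101. With percent time in open arms, r was 0.10 in bHRs and -0.34 in bLRs, and rho was 0.22 and -0.30 (permutation p = 0.734 and 0.379 for r, 0.522 and 0.372 for rho). Without the 2 farthest rats of each line, these r were 0.13 and -0.25. With EPM distance, r was 0.30 in bHRs and -0.37 in bLRs (permutation p = 0.420 and 0.394), rho was 0.42 and -0.28 (permutation p = 0.299 and 0.411), and without 2 rats r was 0.37 and -0.11. With time immobile, r was -0.11 and 0.09 (permutation p = 0.712 and 0.801), rho was -0.11 and 0.27 (permutation p = 0.737 and 0.433), and without 2 rats r was -0.04 and -0.23. With boli in bLRs, r was 0.14 and rho 0.04 (permutation p = 0.671 and 0.907), and without 2 rats r was 0.40. Adjusted over the 9 relations, p was 0.834 for each r and from 0.779 to 0.907 for rho. With 11 or 12 rats a line, weak relations were not detectable.

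Within the males, which were dissected on 1 day, r of Sgk1 with percent time in open arms was 0.48 in bHRs and -0.43 in bLRs. Within the females it was -0.34 and -0.05. With LocoScore it was 0.53 and -0.23 in males, and 0.46 and 0.25 in females of bHRs and bLRs. With EPM distance it was 0.57 and -0.48 in males, and -0.32 and 0.14 in females. With time immobile it was 0.20 and 0.31 in males, and -0.53 in females of each line. With boli in bLRs it was 0.54 in males and -0.36 in females. These values rest on 5 or 6 rats each and are given as a description.

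RNA metrics were compared with Sgk1 over the 23 rats with the mean of each of the 4 groups subtracted, and within each line. In the lineage model the Sgk1 term was 0.01 per percentage point of %rRNA (SE 0.14, FDR = 0.954) and 0.08 per percentage point of %intergenic (SE 0.10, FDR = 0.506), while 76.4% and 68.8% of all genes were called for these terms. Over the 23 rats, r with %rRNA was -0.04 (permutation p = 0.857, adjusted over the 15 relations 0.973) and rho -0.27 (permutation p = 0.210, adjusted 0.450). Without the L07 bLR male and the L10 bLR female, the 2 rats farthest from the median %rRNA, r was -0.53. In bHRs r was -0.59 (permutation p = 0.00932, adjusted 0.140) and rho -0.75 (permutation p = 0.00165, adjusted 0.0247), without the 2 farthest rats r was -0.65, and with the low RIN female included r was -0.20. In bLRs r was 0.32 and rho 0.24 (permutation p = 0.325 and 0.465, adjusted 0.673 and 0.686), and without the 2 farthest rats r was -0.45. With %intergenic, r was 0.39 and rho 0.47 over the 23 rats (permutation p = 0.117 and 0.0596, adjusted 0.496 and 0.372), and without the bHR male of H02 and the bLR male of L01 r was 0.64. In bHRs r with %intergenic was 0.65 and rho 0.57 (permutation p = 0.0467 and 0.150, adjusted 0.351 and 0.434), and without the 2 farthest rats r was 0.41. In bLRs r was 0.15 and rho 0.16 (permutation p = 0.682 and 0.647, adjusted 0.930 and 0.721), and without 2 rats r was 0.66. With RIN, r was -0.29 and rho -0.39 (permutation p = 0.277 and 0.0992, adjusted 0.673 and 0.372), and without the bLR males of L01 and L03 r was -0.64. In bHRs r with RIN was -0.57 and rho -0.55 (permutation p = 0.142 and 0.174, adjusted 0.496 and 0.434), and without 2 rats r was -0.27. In bLRs r was -0.21 and rho -0.30 (permutation p = 0.557 and 0.376, adjusted 0.929 and 0.626), and without 2 rats r was -0.70. Over the 23 rats, RNA concentration had r = 0.18 and rho = 0.15 (permutation p = 0.359 and 0.507), and r = 0.14 without its 2 farthest rats. The total count had r = 0.07 and rho = 0.16 (permutation p = 0.765 and 0.549), and r = 0.24 without its 2 farthest rats. Adjusted p was 0.673 or more for these 2 metrics over the 23 rats. Within lines, r with RNA concentration was 0.38 in bHRs and -0.01 in bLRs, and with the total count 0.17 and -0.02 (adjusted permutation p 0.496 or more). By sex, r with %rRNA was -0.98 in males and -0.60 in females of bHRs, and 0.14 and 0.57 in bLRs. With %intergenic it was 0.64 and 0.75 in bHRs, and -0.32 and 0.94 in bLRs. These values by sex rest on 5 or 6 rats each and are a description. On the TMM scale, rho with %rRNA in bHRs was the 1 relation of the 15 that passed correction. On total counts, 8 of the 15 r passed an adjusted permutation p of 0.10. These were, over the 23 rats and in bHRs, -0.44 and -0.80 with %rRNA, 0.52 and 0.71 with %intergenic, -0.49 and -0.75 with RIN, and 0.50 and 0.62 with RNA concentration.

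**Figure D5:**
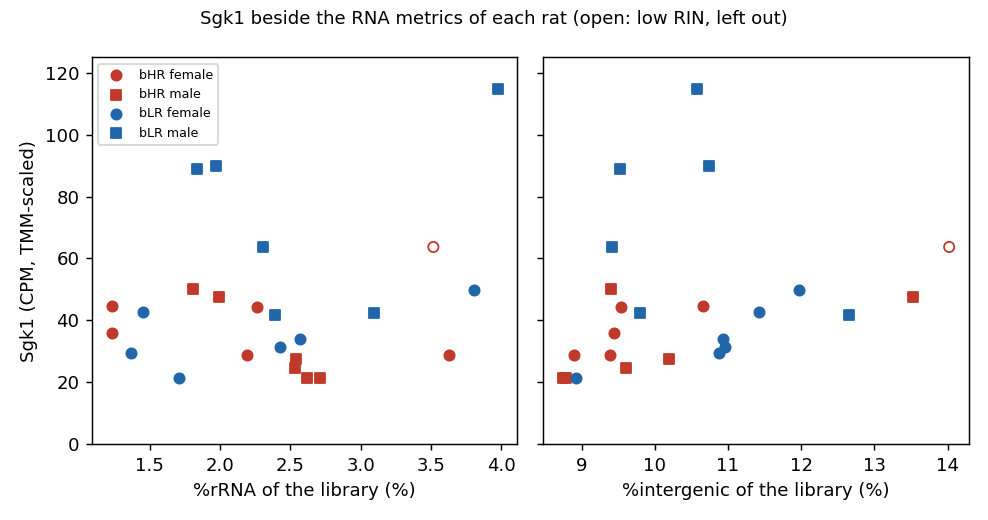
Sgk1 (y axes, TMM-scaled CPM) against %rRNA (left) and %intergenic (right) of the library of each rat, by line (color) and sex (shape), with the low RIN female as an open circle. In bHRs Sgk1 is lower at higher %rRNA (rho = -0.75, sex means subtracted from ranks), and the highest point is the bLR male of L07 at 3.98% rRNA.

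Genes whose levels followed Sgk1 from rat to rat were sought among the 1978 other tested genes with a symbol, by Pearson r of log2 CPM over 23 rats with group means subtracted. These rats share library composition, so the r are a description. Over all 13837 other genes, r ran from -0.67 to 0.75 with a median of -0.06, and 5% of genes exceeded 0.44. The 10 highest with a symbol were Afap1l2 (r = 0.60), Akt1s1 (0.59), Golga7b (0.58), Spns1 (0.58), Tcerg1l (0.58), Itpkc (0.57), Zfta (0.57), Dusp5 (0.56), Dennd2b (0.56) and Dnajc21 (0.56). Akt1s1 encodes a subunit of the mTOR complex that AKT phosphorylates, and Dusp5 a phosphatase of ERK kinases. Dusp5 was also on the immediate-early list, and its r was 0.85 in bHRs and 0.30 in bLRs. The 5 lowest were Lysmd3 (-0.58), AABR07001926.3 (-0.57), Trappc13 (-0.56), Hbs1l (-0.56) and Pkia (-0.55). Of the glucocorticoid-induced genes, r with Sgk1 went both ways, at 0.24 for Klf9, 0.09 for Klf13, -0.16 for Anxa1 and -0.18 for Sult1a1. Among the HIF targets, r was highest for Aldoa (0.45) and lowest for Mxi1 (-0.51).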

How the data were processed

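Per the labels and the study's methods, poly-A libraries of whole hippocampus were sequenced as paired ends, aligned by the authors with STAR 2.7.3a to Rnor6, and counted by strand with Subread 2.0.0 on Ensembl v103 genes, unique hits only. The deposited file holds read counts as the authors' counter gave them, without normalization or filter. Symbols and Rnor6 positions came from the study's gene tables, which named 1985 of 32883 rows, and start windows from RefSeq (GRCr8). Genes with at least 1 CPM in 25% of the rats (6 of 23) were fitted with edgeR 4.0.16 (TMM, quasi-likelihood test) in R 4.3.3 on lineage, sex, %rRNA and %intergenic. The interaction model held lineage, sex, their interaction and %rRNA, and models within 1 sex or line held %rRNA. The Benjamini-Hochberg method was applied over all genes, with a threshold of FDR < 0.10. Relations across rats used log2 CPM with a prior count of 2 and 100000 two-sided permutations within sex or group (scipy 1.17.1, numpy 2.4.6). For rho, values were ranked first, and the sex or group means of the ranks were then subtracted. Alternatives used limma 3.58.1 and DESeq2 1.42.0. Rats of a labelled family deviated from their group means together in 6 of 11 families (r over 0.1 across genes, range -0.72 to 0.78), and the pairing rests on the family labels. The fits were tested on simulated data. The text names the 2 chosen genes, genes of pathway and marker lists, neighbors within 1 Mb on chromosome 1, and the 10 highest and 5 lowest r with Sgk1. Genes and lists were chosen with earlier results of these data known. Each library is 1 rat, and differences were judged against variation between rats, taken as independent except where family was modeled. With 1 breeding line for each temperament, the p-values do not cover variation between lines.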

Additional observations from a re-analysis of the deposited data

Results flagged for a closer look

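The lineage difference of Sgk1 differed between males and females by the interaction term, at -1.26 on the Log2FC scale (edgeR, unadjusted p = 0.00369), with a Log2FC of 1.24 in males and -0.10 in females. It did not pass the correction over all genes (FDR = 1.00). All 6 bLR males lay above the median bHR male, while 2 of the 6 bLR females lay above the median bHR female. No rat stood apart from its group in Sgk1 by Dixon's test on either scale. The cause of the difference was not tested.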

How the results depend on the processing

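The Log2FC of Sgk1 for lineage kept its direction and missed the threshold in all 11 other settings (0.42 to 0.59, FDR 0.249 to 0.688) and without each of the 23 rats (0.40 to 0.67). For sex it did so in 11 settings (-0.47 to -0.17, the last with family as replicate block, which changed no call) and without each rat (-0.54 to -0.34). The interaction was -1.48 and -1.40 in 2 other fits (FDR 0.548 and 1.00), -1.52 to -1.04 without each rat, and -1.43 by labelled families (exact permutation p = 0.0173). The male difference was 1.19 by the exact permutation test (p = 0.0390, adjusted over the 6 pairs of groups and not over all genes). Without each male it was 1.00 to 1.38 (edgeR, FDR 0.0509 to 0.914). The female difference was -0.24 with the low RIN female included, against -0.10 without it. Leaving out each female gave -0.26 to 0.00, with a turn to 0.0011 without the bHR of H02 and 0.0038 without the bLR of L07.

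The count of genes called for lineage, 185, was 329 with DESeq2, 294 with all 24 rats, 56 without technical covariates and 97 to 436 without 1 rat (97 without the bHR male of H02, 436 without the bHR female of H12). That for sex, 49, was 157 with DESeq2, 21 with library size alone, 13 without technical covariates, 18 with %rRNA only, 75 with RNA concentration added (chosen after seeing the data), 19 with the family block, and 18 to 159 without 1 rat (18 without the bHR male of H05, 159 without the bLR male of L06).

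Behavior relations stayed uncalled, and 3 changed sign: open arms in bHRs on total counts (-0.23), and time immobile in bLRs without 2 rats (-0.23) and on total counts (-0.14). Other r moved without a change of sign, as from -0.11 to -0.42 for time immobile in bHRs on total counts. For RNA metrics on total counts, chosen after seeing the data, r was -0.44 for %rRNA over 23 rats and -0.80 in bHRs, 0.52 and 0.71 for %intergenic, -0.49 and -0.75 for RIN, and 0.50 and 0.62 for RNA concentration, all past an adjusted p of 0.10. In bLRs it turned to -0.11 for %rRNA, 0.35 for RNA concentration and 0.018 for total counts. Without the 2 farthest rats, r over 23 rats passed at -0.53 for %rRNA, 0.64 for %intergenic and -0.64 for RIN, and turned to -0.45 for %rRNA in bLRs. With all 24 rats, r was 0.079 for %rRNA, 0.49 for %intergenic (0.74 in bHRs) and -0.55 for RIN in bHRs, the last 3 past 0.10. The causes were not tested. The relation of Sgk1 with Hif3a was not run. Sgk1 had 384 counts or more in each of the 23 rats.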
